A study of Mus musculus with 15 samples.

Results

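The genes described here are the long intergenic noncoding RNA (lincRNA) genes that are expressed in the liver of C57BL/6 mice kept on 3 feeding regimens. They were chosen by measured values: a gene was taken when the deposited count table gives it the type lincRNA and when its CPM (the count divided by the library total and scaled to a common size), averaged over all 15 libraries, was at least 1. This left 147 of 2769 genes of that type, of which 1143 had any count, in a table of 35275 genes. The groups were every-other-day fasting for 24 h (EOD), intermittent fasting for 16 h (IF16) and ad libitum feeding (AL), with 5 RNA-seq libraries in each. No genotype beyond the strain is given for any group. The mice were randomly assigned at 3 months of age and were 6 months old after 3 months on the regimen. RNA came from the left lateral lobe, and poly-T beads selected polyadenylated RNA for the libraries, so that transcripts without a poly(A) tail are under-represented. The hour of collection and the time since the last meal are not stated in the labels. Nor is it stated whether the 5 libraries of a group come from 5 mice, so the p-values describe how these libraries vary, and part of that variation may be technical. The level that chose the genes is an average over all groups and is given below as a description only.

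LincRNAs are transcribed by RNA polymerase II, mostly spliced and polyadenylated, and lie between protein-coding genes. Some act as RNA in the nucleus, as Malat1 and Neat1 do in nuclear speckles and paraspeckles. Others carry small RNAs in their introns: small nucleolar RNA (snoRNA) host genes release box C/D or H/ACA snoRNAs, which guide the modification of ribosomal RNA, while the spliced host transcript itself is usually short-lived. For most named lincRNA genes in mouse liver no function is established, and many lie beside a protein-coding gene whose promoter they share.

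Library totals ranged from 28129883 to 38147534 counts, and a floor of 3 counts corresponded to 0.0786 to 0.107 CPM. The 147 genes took 0.212 to 0.313% of the counts in EOD libraries, 0.192 to 0.220% in IF16 libraries and 0.218 to 0.373% in AL libraries. Much of this was Yam1, a gene described below. Without it the shares were 0.104 to 0.158% in EOD, 0.116 to 0.131% in IF16 and 0.111 to 0.164% in AL libraries. A few libraries stood apart. Mitochondrially encoded genes took 10.1% of the counts in EOD replicate 5, against 5.34 to 6.83% in EOD replicates 1 to 4, 8.98 to 11.47% in IF16 libraries and 10.01 to 15.1% in AL libraries. The summed level of 15 acute phase genes was 41726 CPM in AL replicate 4 and 59177 CPM in AL replicate 5, against 11770 to 13811 CPM in AL replicates 1 to 3, and 4 neutrophil markers summed to 35.2 and 32.6 CPM in AL replicates 4 and 5, against 2.61 to 3.80 CPM in the other AL libraries. The 8 markers of sinusoidal endothelium, none of them at 0, summed to 224 to 270 CPM in EOD libraries and 208 to 264 CPM in IF16 libraries, against 97.4 to 172 CPM in AL libraries. The 8 markers of hepatocytes, the main cell of the liver, summed to 97924 to 125095 CPM in EOD, 111282 to 141267 CPM in IF16 and 93878 to 113824 CPM in AL libraries, with none at 0. None of 7 tested Kupffer cell markers was called in any comparison, while 3 of 8 stellate cell markers rose and 1 fell in EOD against AL livers. The stellate markers summed to 207 and 209 CPM in AL replicates 4 and 5 and to 311 to 350 CPM in AL replicates 1 to 3. In EOD libraries they summed to 321 to 446 CPM. In bulk tissue, fewer cells of a type and less RNA per cell cannot be told apart, and the part of these differences in the results below was not tested.

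The label lincRNA held for most genes but not for all. The GENCODE M21 annotation has 135 of the 147 identifiers and types 93 of them as lincRNA, 14 as antisense, 12 as bidirectional promoter RNA and 10 as processed transcript, while it types Fam169b and Slc6a16 as protein-coding and Gpr137b-ps and 1810014B01Rik as transcribed pseudogenes. RefSeq lists 5 of the 147 as protein-coding: Fam169b, Slc6a16, C330006A16Rik, Gm6712 and 1810058I24Rik, which encodes a small mitochondrial protein. By the deposited coordinates, 44 of the 147 genes overlapped a protein-coding gene, 7 of them on the same strand, and 30 more lay within 1000 bases of one. No source used here gives the strand setting of the counting, so reads of overlapping genes may be mixed. Yam1, the most abundant gene of the type, lies within a stretch that GENCODE types as ribosomal RNA on the opposite strand over 100% of its length, and its values may hold ribosomal reads.

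Expression per length was low. The median of the mean FPKM (count scaled by gene length and library total) was 1.65 over the 147 genes, against 4.17 over 11157 tested protein-coding genes of a mean CPM of at least 1. The mean CPM was below 5 in 105 genes and at least 100 in 4. The genes with the highest mean FPKM were Yam1 (632 FPKM), 2410004N09Rik (45.8 FPKM), 9030616G12Rik (43.6 FPKM), 1810058I24Rik (43.3 FPKM), Gm27216 (32.0 FPKM) and RP23-181K4.2 (24.8 FPKM). The genes just inside the threshold were B230208H11Rik at a mean of 1.004 CPM, Gm15411 at 1.007 CPM and Snhg4 at 1.022 CPM, and those just outside were 2310005A03Rik at 0.978 CPM, RP23-214P23.3 at 0.971 CPM and Gm6297 at 0.970 CPM. In raw CPM, 116 genes averaged at least 1 in every group, 28 in 2 groups and 3 in 1 group only. The spread between libraries was wider than for protein-coding genes: the biological coefficient of variation had a median of 0.231 over the lincRNA genes, against 0.168 over protein-coding genes of at least 1 CPM, and 0.250 against 0.222 where only genes of 1 to 5 CPM were taken.

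Many of these genes differed between EOD and AL livers. Between EOD and AL livers, 32 lincRNA genes rose and 24 fell at an adjusted p under 0.05 (edgeR quasi-likelihood test, Benjamini-Hochberg adjustment over all 13837 genes tested), which is 38.1% of the 147. Of all genes tested, 35.2% were called in this comparison, 17.6% higher and 17.6% lower in EOD, so the share among lincRNA genes was close to the background. All 147 genes passed the filter on low counts and were tested. The folds of the called genes ran from 1.41 to 10.9 among the 32 higher genes, and from 1.27 to 18.4 among the 24 lower genes. Among lincRNA genes of 1 to 5 CPM, 34.3% of 105 were called, against 29.5% of 2747 protein-coding genes in that range. The log2 fold change had a median of 0.08 over the 147 genes and of -0.01 over all genes tested. Between EOD and IF16 livers, 20 lincRNA genes rose and 12 fell, or 21.8%, against a background of 16.1% of all genes, 7.96% higher and 8.15% lower. Between IF16 and AL livers, 7 rose and 3 fell, or 6.80%, against 3.50% of all genes, 1.40% higher and 2.10% lower. The comparisons of EOD and of IF16 with AL share the AL libraries. In 39 of the 56 genes called between EOD and AL the values of the EOD and AL libraries did not overlap. The share among all called genes was not counted, so this count does not tell whether lincRNA genes differ from other called genes. The mean of the IF16 libraries lay between the EOD and AL means in 27 of the 32 higher genes and in 18 of the 24 lower genes. These genes were picked for a gap between EOD and AL in the same libraries, which by itself favours an IF16 mean inside the gap. The share among all called genes was not counted here either, so these counts cannot tell whether a graded response is particular to lincRNA genes.

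**Figure D1:**
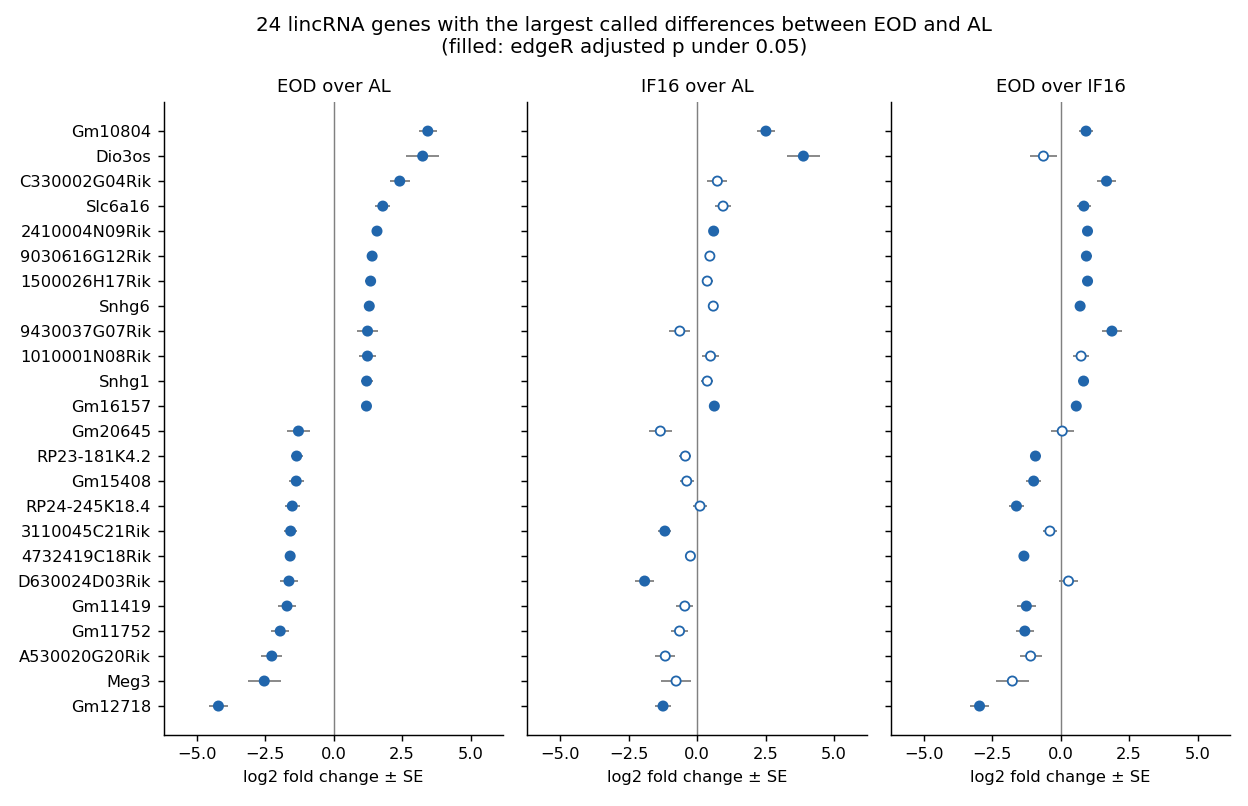
Log2 fold changes with their standard errors for the 12 lincRNA genes with the largest called increases and the 12 with the largest called decreases between EOD and AL, in each of the 3 comparisons (x axis, log2 scale; filled points, edgeR adjusted p under 0.05). Gm10804 stands at 3.44 and Gm12718 at -4.20 in EOD over AL, and Dio3os stands further right in IF16 over AL (3.88) than in EOD over AL (3.25).

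Several snoRNA host genes were higher in EOD livers than in both other groups. By the GENCODE annotation, 11 of the 147 genes hold a snoRNA gene on their own strand, and 5 of them rose in EOD livers against AL livers while none fell, beside 17.6% of all genes tested called higher. Between EOD and IF16 livers 6 of the 11 rose and none fell, beside 7.96% of all genes called higher, and between IF16 and AL livers 1 rose and none fell, beside 1.40% called higher. The median log2 fold change of the 11 genes was 0.61 in EOD over AL, against -0.01 over all genes tested.

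The starts of the host transcripts are shown because snoRNA host genes are known as genes whose transcripts begin in a run of pyrimidines, the feature of terminal oligopyrimidine RNAs. Each window holds 30 bases before and 30 bases from the annotated first base onward, from RefSeq (GRCm38.p6, the build of mm10), and the capitals mark the unbroken run of C and T that includes the first base. The windows are Snhg1 at chr19:8723457-8723516 (plus strand), Snhg12 at chr4:132308648-132308707 (plus strand), Snhg7 at chr2:26640215-26640274 (minus strand), Snhg18 at chr15:32244633-32244692 (minus strand), 2810008D09Rik at chr11:117076753-117076812 (plus strand), 2900076A07Rik at chr7:81523520-81523579 (plus strand) and 9330159M07Rik at chr9:88858841-88858900 (minus strand).
Snhg1: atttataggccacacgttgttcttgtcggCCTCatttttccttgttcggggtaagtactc
Snhg12: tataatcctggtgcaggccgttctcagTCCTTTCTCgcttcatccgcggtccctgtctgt
Snhg7: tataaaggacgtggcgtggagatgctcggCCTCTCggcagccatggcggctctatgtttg
Snhg18: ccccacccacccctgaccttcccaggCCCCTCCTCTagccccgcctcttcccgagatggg
2810008D09Rik: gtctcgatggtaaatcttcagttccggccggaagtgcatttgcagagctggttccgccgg
2900076A07Rik: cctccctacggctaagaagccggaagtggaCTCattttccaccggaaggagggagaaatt
9330159M07Rik: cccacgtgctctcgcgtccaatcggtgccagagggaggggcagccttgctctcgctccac
The run was 4 bases long in Snhg1, 9 in Snhg12, 6 in Snhg7, 10 in Snhg18 and 3 in 2900076A07Rik, and the first base was no pyrimidine in 2810008D09Rik and 9330159M07Rik. Nor was it one in the windows, not shown, of 9430037G07Rik, Gas5 and Snhg5, which lie 273, 179 and 32 bases from the deposited starts and whose genes rose in EOD against AL livers. Only a run at the annotated first base was counted, so these windows do not show that a run is absent at the start in use. A run of at least 4 was present in 14% of all 32851 promoter windows. This feature was looked for after the values were seen, and Snhg7 and Snhg18, with long runs, were not called in any comparison.

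Snhg1, on chr19:8723496-8726442 (mm10), holds 8 snoRNA genes. It had 14.7, 17.0, 26.7, 27.3 and 14.4 CPM (scaled by TMM factors, as all CPM values of single genes below) in the EOD libraries, 9.25, 9.61, 13.6, 10.5 and 13 CPM in the IF16 libraries, and 6.64, 9.22, 6.88, 12.6 and 7.93 CPM in the AL libraries. Every EOD library lay above every library of the other 2 groups. On the log2 scale the fold change was 1.21 ± 0.22 (SE) in EOD over AL (edgeR adjusted p = 0.000482) and 0.84 ± 0.21 in EOD over IF16 (edgeR adjusted p = 0.0134), while 0.37 ± 0.21 in IF16 over AL missed the threshold (edgeR adjusted p = 0.380).

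Snhg6, on chr1:9941959-9944118, holds Snord87. It had 25.2, 26.2, 36.6, 34.7 and 16.3 CPM in the EOD libraries, 15.3, 18.5, 19.5, 13.8 and 17.8 CPM in the IF16 libraries, and 11.4, 10.9, 10.02, 12.02 and 12.05 CPM in the AL libraries. EOD replicate 5, the library with the high mitochondrial share, was the lowest of its group and lay within the IF16 range. Its log2 fold change was 1.30 ± 0.17 in EOD over AL (edgeR adjusted p = 3.00e-05), and 0.59 ± 0.17 in IF16 over AL (edgeR adjusted p = 0.0618), where the 2 groups did not overlap and 5 alternative fits made the call (adjusted p = 0.0123 to 0.0491).

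Snhg12, on chr4:132308678-132311024, holds 5 annotated snoRNA genes, Snora44, Snora61 and Snord99 among them. It had 15.1, 17.3, 18.7, 21.3 and 15.5 CPM in the EOD libraries, 7.36, 9.92, 11.8, 11.52 and 11.8 CPM in the IF16 libraries, and 7.12, 10.6, 7.90, 10.7 and 8.77 CPM in the AL libraries. The EOD libraries were apart from both other groups, and the IF16 and AL libraries overlapped. This gave a log2 fold change of 0.96 ± 0.15 in EOD over AL (edgeR adjusted p = 0.000148) and 0.22 ± 0.15 in IF16 over AL (edgeR adjusted p = 0.474).

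2410004N09Rik, which RefSeq calls Epb41l4aos, lies 340 bases from the nearer bound of the gene named Epb4.1l4a, which is on the opposite strand. 2410004N09Rik was the host among the 11 with the largest increase in EOD over AL. It had 30.7, 28.2, 36.8, 40.9 and 24.6 CPM in the EOD libraries, 14.2, 15.9, 19.5, 16.0 and 16.0 CPM in the IF16 libraries, and 10.2, 10.7, 11.6, 12.1 and 9.11 CPM in the AL libraries. None of the 3 groups overlapped another. Its log2 fold change was 1.58 ± 0.13 in EOD over AL (edgeR adjusted p = 4.66e-07), 0.98 ± 0.13 in EOD over IF16 (edgeR adjusted p = 0.000133) and 0.60 ± 0.13 in IF16 over AL (edgeR adjusted p = 0.0173). The last call ended without AL replicate 5 or without IF16 replicate 3, at an edgeR adjusted p of 0.0506 to 0.0661 over these fits and the fit without AL replicates 4 and 5.

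9430037G07Rik and 9330159M07Rik lie on a stretch of chromosome 9 that also holds the host Snhg5, and each has a predicted snoRNA gene. 9430037G07Rik averaged 4.12 ± 1.83 CPM in EOD libraries, 1.12 ± 0.506 CPM in IF16 libraries and 1.75 ± 0.909 CPM in AL libraries (SD, n = 5 each), and 9330159M07Rik averaged 1.91 ± 0.763 CPM, 0.833 ± 0.222 CPM and 1.26 ± 0.529 CPM in EOD, IF16 and AL libraries. In both genes EOD replicate 1 was the highest EOD library and AL replicate 4 the highest AL library. No source used here says how reads that match several genes were counted. The sequences of these 2 genes were not compared, so whether they share reads is not known. 9430037G07Rik was higher in EOD than in IF16 livers by 1.87 ± 0.38 on the log2 scale (edgeR adjusted p = 0.00360), and 9330159M07Rik by 1.21 ± 0.31 (edgeR adjusted p = 0.0147), a call that ended without EOD replicate 1 (edgeR adjusted p = 0.0554).

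The remaining hosts, Snhg7, Snhg18, Snhg4, 2810008D09Rik and 2900076A07Rik, were called in no comparison. The wider list of snoRNA hosts had 9 tested genes of any type, of which 5 rose and 1 fell in EOD against AL livers. Of all genes tested, 17.6% were called in each direction. Snhg1, Snhg6 and Snhg12, described above, are among the genes that rose on this list too, so its count is not separate from the one above. Only Gas5 and Snhg5 were added to the rises by this list. Gas5, typed as processed transcript, averaged 90.4 ± 9.51 CPM in EOD, 67.8 ± 4.23 CPM in IF16 and 63.0 ± 6.86 CPM in AL libraries (SD, n = 5 each), a log2 fold change of 0.52 ± 0.10 in EOD over AL (edgeR adjusted p = 0.000673). Snhg5 rose by 0.67 ± 0.18 on the log2 scale (edgeR adjusted p = 0.00689). Snhg11, typed as protein-coding in the table, was the one on that list that fell: it averaged 14.1 CPM in EOD, 27.1 CPM in IF16 and 37.1 CPM in AL libraries, a log2 fold change of -1.40 in EOD over AL (edgeR adjusted p = 0.00351). Rian, a snoRNA host that was listed with the imprinted genes and is not in this count, also fell.

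**Figure D2:**
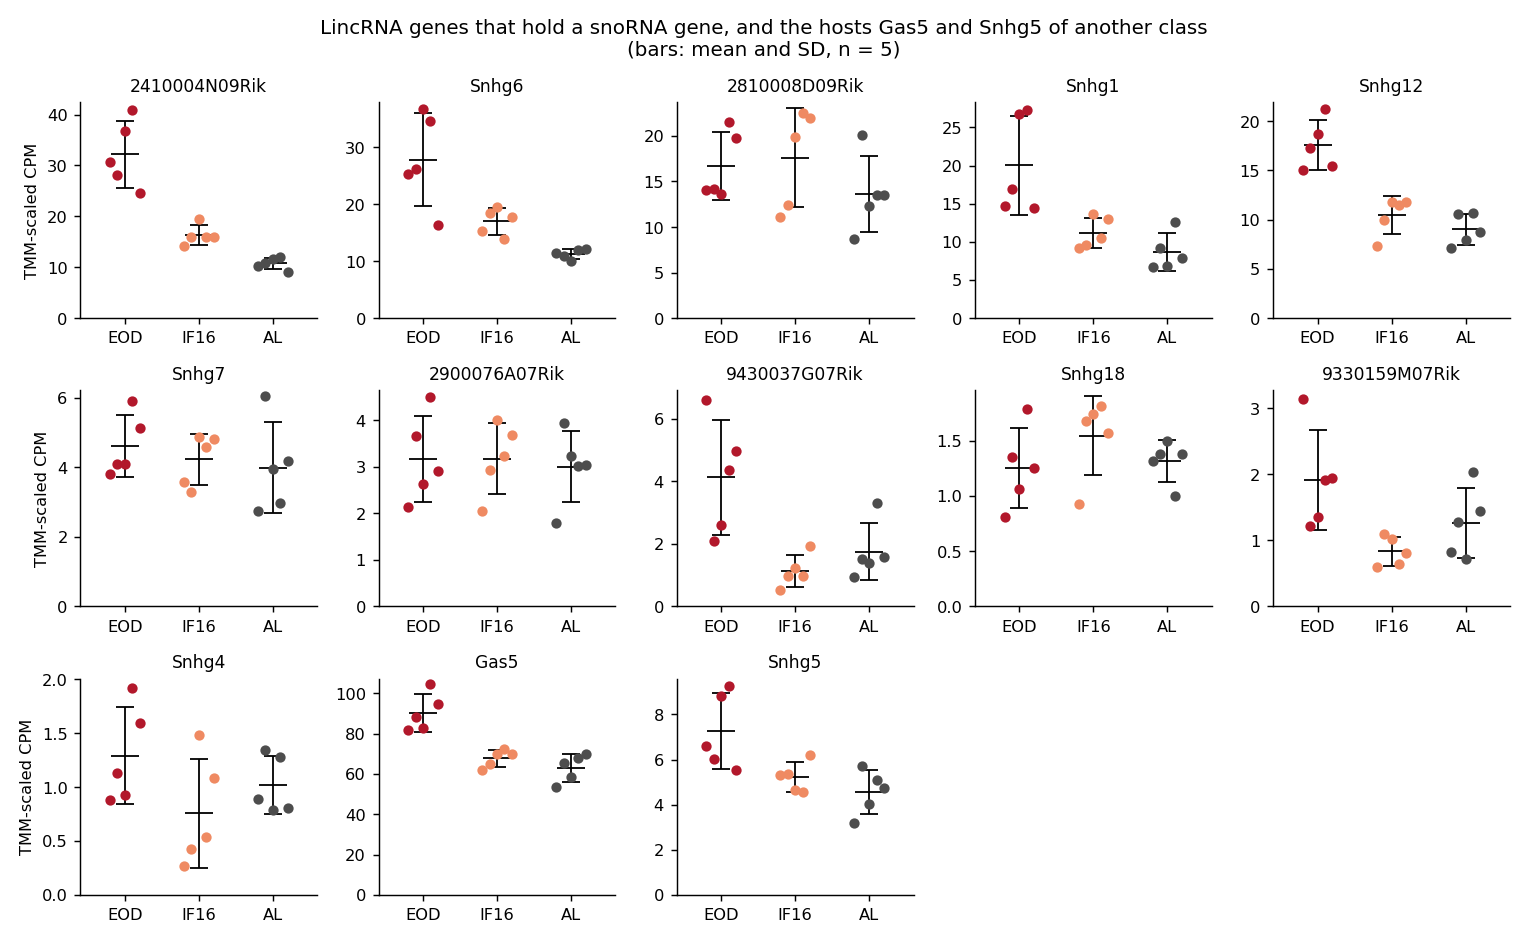
TMM-scaled CPM (y axis, linear, a scale per panel) in each library of the EOD, IF16 and AL groups (points, 5 per group; black bars, mean and SD) for the 11 lincRNA genes that hold a snoRNA gene and for Gas5 and Snhg5. All EOD points of 2410004N09Rik, Snhg1 and Snhg12 lie above all points of the other groups, whereas the groups of Snhg7, Snhg18 and 2900076A07Rik overlap.

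The Dlk1-Dio3 imprinted domain on chromosome 12 held genes that moved in opposite directions. Meg3 is the maternally expressed lincRNA of this domain, and Dio3os is transcribed from the strand opposite to Dio3, the gene of the deiodinase that inactivates thyroid hormone. Meg3 was lower and Dio3os higher in EOD than in AL livers.

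Meg3, on chr12:109541001-109571726, had 1.09, 0.358, 0.497, 1.89 and 2.29 CPM in the EOD libraries, 3.60, 3.94, 2.83, 4.53 and 5.80 CPM in the IF16 libraries, and 2.06, 2.80, 4.05, 11.99 and 14.5 CPM in the AL libraries. The high AL values came from replicates 4 and 5, the libraries with high acute phase and neutrophil genes, and the EOD and AL ranges overlapped slightly. The log2 fold change in EOD over AL was -2.53 ± 0.60 (edgeR adjusted p = 0.00501), and -1.25 without AL replicates 4 and 5 (edgeR adjusted p = 0.0440). In EOD over IF16, whose libraries did not overlap, it was -1.76 ± 0.59 (edgeR adjusted p = 0.0576, and 0.00805 without AL replicates 4 and 5), and in IF16 over AL -0.77 ± 0.54 (edgeR adjusted p = 0.493), where leaving out AL replicates 4 and 5 turned the sign, to 0.49 (edgeR adjusted p = 0.616). Rian, the snoRNA host downstream in the same domain, typed as processed transcript, averaged 0.719 ± 0.172 CPM in EOD, 3.00 ± 0.918 CPM in IF16 and 6.16 ± 5.37 CPM in AL libraries (SD, n = 5 each), with its highest values also in AL replicates 4 and 5, a log2 fold change of -3.08 ± 0.56 in EOD over AL (edgeR adjusted p = 0.000810). The other imprinted RNAs that could be tested, Kcnq1ot1 and Airn, were not called in any comparison (edgeR adjusted p = 0.148 to 0.948).

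Dio3os, on chr12:110275384-110278068, was the gene with the largest increase in IF16 livers. It had 1.09, 1.79, 2.13, 3.38 and 5.04 CPM in the EOD libraries, 1.02, 2.84, 3.98, 8.11 and 4.70 CPM in the IF16 libraries, and 0.0858, 0.276, 0.131, 0.415 and 0.506 CPM in the AL libraries, where some values rest on few reads. Every fasted library lay above every AL library, and the EOD and IF16 libraries overlapped. The log2 fold change was 3.25 ± 0.61 in EOD over AL (edgeR adjusted p = 0.000963), 3.88 ± 0.61 in IF16 over AL (edgeR adjusted p = 0.00307) and -0.63 ± 0.48 in EOD over IF16 (edgeR adjusted p = 0.406). Without AL replicates 4 and 5 the first was 4.06 and the second 4.67. Dio3 itself, 999 bases away, was too low to be tested.

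Among the other increases, Gm10804 was the largest in EOD livers. The gene, on chr2:93452819-93469871, overlaps Cd82, a tetraspanin gene, on the opposite strand. It had 2.36, 2.89, 4.58, 6.43 and 3.63 CPM in the EOD libraries, 1.68, 1.98, 3.19, 1.81 and 1.78 CPM in the IF16 libraries, and 0.172, 0.345, 0.457, 0.484 and 0.371 CPM in the AL libraries. The AL libraries were all below 0.5 CPM and apart from both fasted groups. On the log2 scale the fold change was 3.44 ± 0.32 in EOD over AL (edgeR adjusted p = 1.25e-06) and 2.51 ± 0.32 in IF16 over AL (edgeR adjusted p = 0.000504). In EOD over IF16 it was 0.93 ± 0.27 (edgeR adjusted p = 0.0263), a call that ended when any 1 of 6 libraries (IF16 replicates 1, 2, 4 and 5, EOD replicates 3 and 4) was left out, at an edgeR adjusted p of 0.0511 to 0.0768. Cd82 was lower in EOD livers by a log2 fold change of -0.51 ± 0.09 (edgeR adjusted p = 0.000326).

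C330002G04Rik, on chr19:23037390-23075853, had 3.35, 6.99, 4.16, 7.06 and 8.52 CPM in the EOD libraries, 1.05, 1.53, 2.23, 3.44 and 1.13 CPM in the IF16 libraries, and 0.544, 1.10, 1.37, 1.73 and 0.911 CPM in the AL libraries. The EOD libraries stood above all AL libraries, and the lowest of them was within the IF16 range. Its log2 fold change was 2.41 ± 0.37 in EOD over AL (edgeR adjusted p = 0.000131), 1.68 ± 0.35 in EOD over IF16 (edgeR adjusted p = 0.00426) and 0.74 ± 0.37 in IF16 over AL (edgeR adjusted p = 0.296).

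9030616G12Rik, on chr10:128971197-128978115, was the most abundant rising gene per length after 2410004N09Rik, with mean FPKM of 43.6. It had 40.2, 54.1, 52.7, 46.3 and 29.6 CPM in the EOD libraries, 14.4, 27.7, 28.7, 22.2 and 23.0 CPM in the IF16 libraries, and 16.5, 23.1, 16.4, 14.6 and 13.5 CPM in the AL libraries. The EOD libraries overlapped neither other group. Its log2 fold change was 1.41 ± 0.20 in EOD over AL (edgeR adjusted p = 6.04e-05) and 0.94 ± 0.19 in EOD over IF16 (edgeR adjusted p = 0.00391), and in IF16 over AL it was 0.47 ± 0.19 (edgeR adjusted p = 0.203).

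RP24-458J4.2, which RefSeq calls 4732465J04Rik, on chr10:95746077-95797236, was called higher in both fasted groups than in AL livers. It had 38.4, 28.1, 38.9, 38.2 and 32.0 CPM in the EOD libraries, 21.9, 32.9, 31.1, 35.0 and 31.2 CPM in the IF16 libraries, and 13.7, 16.2, 18.1, 16.4 and 16.8 CPM in the AL libraries. All fasted libraries lay above all AL libraries. This gave a log2 fold change of 1.11 ± 0.13 in EOD over AL (edgeR adjusted p = 9.12e-06) and 0.91 ± 0.13 in IF16 over AL (edgeR adjusted p = 0.000885), while that in EOD over IF16 was 0.21 ± 0.13 (edgeR adjusted p = 0.280). Gm10605 was also higher in both fasted groups than in AL livers, at 1.42 ± 0.262 CPM in EOD, 1.54 ± 0.374 CPM in IF16 and 0.682 ± 0.282 CPM in AL libraries (SD, n = 5 each), with calls against AL in both fasted groups (edgeR adjusted p = 0.00766 in EOD and 0.0234 in IF16). The sinusoidal endothelial markers were also higher in both fasted groups, with 7 of 8 higher in EOD and 5 of 8 higher in IF16 than in AL livers, and their part in these genes was not tested.

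Gm16157, an antisense RNA on chr7:68266339-68276594, averaged 31.5 ± 7.15 CPM in EOD, 21.2 ± 2.66 CPM in IF16 and 13.7 ± 2.10 CPM in AL libraries (SD, n = 5 each), and was called in all 3 comparisons, with a log2 fold change of 1.20 ± 0.15 in EOD over AL (edgeR adjusted p = 2.01e-05). The gene Fam169b, which overlaps it on the other strand and which RefSeq types as protein-coding, averaged 17.5 CPM in EOD, 18.99 CPM in IF16 and 18.6 CPM in AL libraries and was not called (edgeR adjusted p = 0.490 to 0.926). Slc6a16, a gene of the solute carrier 6 family, averaged 3.74 ± 0.664 CPM in EOD, 2.07 ± 0.709 CPM in IF16 and 1.07 ± 0.432 CPM in AL libraries (SD, n = 5 each), and the log2 fold change was 1.80 ± 0.28 in EOD over AL (edgeR adjusted p = 0.000128). The other named increases in EOD over AL were 1500026H17Rik at a log2 fold change of 1.35, 1010001N08Rik, which overlaps the transcription factor gene Gata6, at 1.24, and Fam120aos at 0.81.

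The decreases in EOD livers were led by Gm12718, on chr4:103382500-103492040. It had 0.286, 0.193, 0.391, 0.166 and 0.376 CPM in the EOD libraries, 4.02, 2.14, 1.02, 1.55 and 2.29 CPM in the IF16 libraries, and 5.69, 3.76, 6.82, 5.98 and 3.88 CPM in the AL libraries. The EOD libraries were apart from both other groups and close to the floor of 3 counts. The log2 fold change was -4.20 ± 0.36 in EOD over AL, the largest among the 147 genes (edgeR adjusted p = 4.74e-07), -2.96 ± 0.36 in EOD over IF16 (edgeR adjusted p = 6.21e-05) and -1.24 ± 0.29 in IF16 over AL (edgeR adjusted p = 0.0230). The IF16 call ended without AL replicate 3 or without any 1 of IF16 replicates 2 to 5 (edgeR adjusted p = 0.0524 to 0.0573).

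4732419C18Rik, on chr8:123744631-123754228, was lower in EOD livers than in both other groups. It had 3.69, 3.80, 4.87, 4.74 and 2.69 CPM in the EOD libraries, 7.99, 11.6, 12.1, 8.51 and 9.90 CPM in the IF16 libraries, and 10.3, 10.4, 13.1, 11.7 and 13.9 CPM in the AL libraries. The EOD libraries did not overlap the others, and the IF16 and AL libraries overlapped. On the log2 scale the fold change was -1.59 ± 0.17 in EOD over AL (edgeR adjusted p = 3.45e-06), -1.34 ± 0.16 in EOD over IF16 (edgeR adjusted p = 6.52e-05) and -0.24 ± 0.16 in IF16 over AL (edgeR adjusted p = 0.445).

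RP24-245K18.4, which RefSeq calls C730036E19Rik, on chr1:151138034-151142345, had 2.94, 3.69, 6.32, 7.82 and 10.5 CPM in the EOD libraries, 15.9, 18.1, 21.4, 19.9 and 19.999 CPM in the IF16 libraries, and 14.2, 23.3, 12.5, 20.6 and 18.0 CPM in the AL libraries. Again the EOD libraries alone were low. Its log2 fold change was -1.51 ± 0.28 in EOD over AL (edgeR adjusted p = 0.000762) and 0.10 ± 0.27 in IF16 over AL (edgeR adjusted p = 0.879). Gm11419 and Gm11752 were likewise called in EOD against both other groups and not in IF16 against AL, with log2 fold changes of -1.70 ± 0.34 and -1.95 ± 0.32 in EOD over AL (edgeR adjusted p = 0.00100 and 0.000251).

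2 abundant genes fell by smaller folds. RP23-181K4.2, which RefSeq calls 1810008I18Rik, on chr7:65803111-65806449, averaged 33.1 ± 10.1 CPM in EOD, 62.6 ± 15.4 CPM in IF16 and 84.3 ± 17.7 CPM in AL libraries (SD, n = 5 each), a log2 fold change of -1.35 ± 0.22 in EOD over AL (edgeR adjusted p = 0.000241). 1810058I24Rik, on chr6:35252654-35263496, had 69.7, 76.0, 106, 62.4 and 67.3 CPM in the EOD libraries, 128, 121, 129, 113 and 112 CPM in the IF16 libraries, and 138, 142, 137, 119 and 117 CPM in the AL libraries. The EOD values lay below all others, and the log2 fold change was -0.78 ± 0.13 in EOD over AL (edgeR adjusted p = 0.000191) and -0.66 ± 0.12 in EOD over IF16 (edgeR adjusted p = 0.00204).

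D630024D03Rik and 3110045C21Rik were lower in both fasted groups than in AL livers. D630024D03Rik, on chr11:31790113-31824524, had 0.312, 1.49, 0.462, 1.13 and 0.909 CPM in the EOD libraries, 1.08, 0.366, 0.559, 0.560 and 0.945 CPM in the IF16 libraries, and 2.17, 2.52, 3.30, 2.80 and 2.56 CPM in the AL libraries. Every AL library lay above every fasted library. This gave a log2 fold change of -1.63 ± 0.34 in EOD over AL (edgeR adjusted p = 0.00163) and -1.92 ± 0.35 in IF16 over AL (edgeR adjusted p = 0.00593). 3110045C21Rik averaged 0.752 ± 0.279 CPM in EOD, 0.987 ± 0.211 CPM in IF16 and 2.23 ± 0.424 CPM in AL libraries (SD, n = 5 each), with log2 fold changes of -1.57 ± 0.25 in EOD over AL (edgeR adjusted p = 0.000151) and -1.18 ± 0.24 in IF16 over AL (edgeR adjusted p = 0.0111). A530020G20Rik fell by 2.26 on the log2 scale in EOD against AL livers (edgeR adjusted p = 0.000366), and its IF16 libraries lay below all AL libraries without passing the test (edgeR adjusted p = 0.0905). Gm20645 was called lower in EOD (log2 fold change -1.28, edgeR adjusted p = 0.0242), but without AL replicate 4 its log2 fold change was -0.64 (edgeR adjusted p = 0.0721), and without AL replicates 4 and 5 it was -0.22 (edgeR adjusted p = 0.471).

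**Figure D3:**
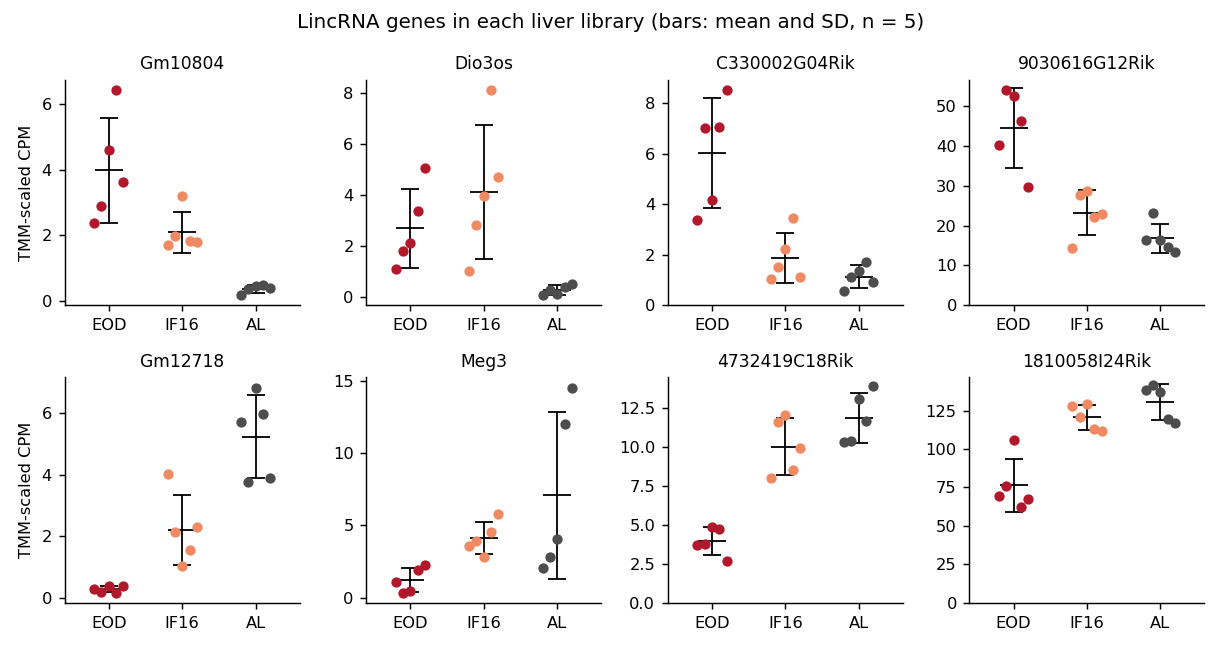
TMM-scaled CPM (y axis, linear, a scale per panel) in each library of the EOD, IF16 and AL groups (points, 5 per group; black bars, mean and SD) for 4 lincRNA genes that rose and 4 that fell in EOD against AL livers. The EOD points of Gm12718 lie between 0.166 and 0.391 CPM, below all points of the other groups, and the AL points of Meg3 split into 3 between 2.06 and 4.05 CPM and 2 at 11.99 and 14.5 CPM.

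Gpr137b-ps was highest in IF16 livers and was called there against both other groups. This gene, a transcribed pseudogene of the lysosomal membrane protein gene Gpr137b, had 0.832, 1.35, 0.533, 0.563 and 1.003 CPM in the EOD libraries, 2.79, 2.14, 2.00, 4.91 and 3.45 CPM in the IF16 libraries, and 0.515, 1.17, 1.92, 1.14 and 1.75 CPM in the AL libraries. All IF16 libraries were above all others. The log2 fold change was -1.82 ± 0.34 in EOD over IF16 (edgeR adjusted p = 0.00189) and 1.24 ± 0.33 in IF16 over AL (edgeR adjusted p = 0.0462). The IF16 call against AL did not hold in 18 of 26 alternative fits, with an adjusted p of up to 0.131. Reads shared with the parent gene may have been split between the copies. The IF16 call of Gm10605 ended without AL replicate 1 or 3 or without any 1 of IF16 replicates 3 to 5 (edgeR adjusted p = 0.0538 to 0.0657), and that of Gm16157 in 7 alternative fits (adjusted p of up to 0.136).

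The nuclear-body lincRNAs were variable. Malat1, on chr19:5795690-5802672, had 61.2, 67.8, 55.8, 106 and 285 CPM in the EOD libraries, 132, 128, 124, 169 and 135 CPM in the IF16 libraries, and 143, 237, 191, 220 and 124 CPM in the AL libraries. EOD replicate 5 was the highest of all libraries, while the other EOD libraries were below all IF16 and AL libraries. With all libraries the log2 fold change was -0.67 ± 0.39 in EOD over AL (edgeR adjusted p = 0.197). Without EOD replicate 5 it was -1.33 (edgeR adjusted p = 0.000173), and in EOD over IF16 it was then -0.92 (edgeR adjusted p = 0.00534).

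Neat1, on chr19:5824708-5845478, had 53.2, 69.3, 39.1, 114 and 163 CPM in the EOD libraries, 78.8, 64.8, 81.5, 128 and 104 CPM in the IF16 libraries, and 99.6, 233, 91.1, 142 and 96.2 CPM in the AL libraries. The groups overlapped. The log2 fold change in EOD over AL was -0.59 ± 0.37 (edgeR adjusted p = 0.234), and -0.94 without EOD replicate 5 (edgeR adjusted p = 0.0472). Of 16 genes of paraspeckle proteins, 2 rose and 5 fell in EOD against AL livers, beside 17.6% of all genes in each direction, with a median log2 fold change of -0.14.

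Yam1 averaged 1260 ± 542 CPM in EOD, 859 ± 101 CPM in IF16 and 1369 ± 646 CPM in AL libraries (SD, n = 5 each) and was not called in any comparison (edgeR adjusted p = 0.188 to 0.767). Another 11 genes with a symbol of their own were called in no comparison. Among them were Jpx and Ftx, regulators of X inactivation, Mir17hg, the host of the miR-17-92 cluster, Fendrr, Pvt1, the neighbour of Myc, Cep83os and Gdap10. Their log2 fold changes ran from -0.50 to 0.34 in EOD over AL (edgeR adjusted p = 0.239 to 0.911), and a p that misses the threshold does not show that their levels were equal. The list of X chromosome RNAs had 3 tested genes, Jpx and Ftx among them, and 1 was called lower in EOD against AL livers. The list that holds Pvt1 also had 3 tested genes, and 1 was called higher, beside 17.6% of all genes in each direction. Neither called gene is among the 147. The 7 lincRNA genes that hold a miRNA gene and no snoRNA gene had 2 decreases in EOD against AL livers, Meg3 and Gm12718, and no increase, beside 17.6% of all genes called lower.

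Genes of RNA decay were called about as often as all genes, of which 17.6% rose and 17.6% fell in EOD against AL livers. Of 21 genes of the nuclear exosome and its adaptors, 4 rose and 4 fell in EOD against AL livers, with a median log2 fold change of -0.07: Rbm7, an adaptor of the exosome, rose by 1.01 (edgeR adjusted p = 0.000163), and Exosc8 and Exosc7, core subunits, had log2 fold changes of -0.70 (edgeR adjusted p = 0.000382) and -0.61 (edgeR adjusted p = 0.000106). Of 18 genes of nonsense-mediated and cytoplasmic decay, 1 rose and 5 fell, with a median log2 fold change of -0.24, and Upf1, the helicase of nonsense-mediated decay, had a log2 fold change of -0.41 (edgeR adjusted p = 0.0024). None of the genes of these 2 lists was called in IF16 against AL livers.

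The nearest protein-coding gene by the deposited coordinates could be tested for 118 of the 147 genes. In EOD against AL livers the neighbour was called for 44 of these lincRNA genes, 37.3%, beside 35.2% of all genes tested. A gene that is nearest to several lincRNA genes, such as Chd1, was counted once for each of them. Of 45 called lincRNA genes with a tested neighbour, 20 had a called neighbour, in the same direction in 13 and in the opposite direction in 7.

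Among the pairs with the same direction, 1300002E11Rik and Ehhadh, the bifunctional enzyme of peroxisomal beta-oxidation, lie 6502 bases apart. 1300002E11Rik averaged 10.7 ± 0.642 CPM in EOD, 7.34 ± 0.521 CPM in IF16 and 7.47 ± 0.576 CPM in AL libraries (SD, n = 5 each), a log2 fold change of 0.51 ± 0.10 in EOD over AL (edgeR adjusted p = 0.000706). Ehhadh averaged 691 CPM in EOD, 228 CPM in IF16 and 147 CPM in AL libraries, a log2 fold change of 2.23 ± 0.26 (edgeR adjusted p = 1.49e-05). RP23-190H11.5 rose by 0.71 and Chchd4, a gene of mitochondrial protein import 22520 bases away, by 1.13 (edgeR adjusted p = 0.000853). 1810058I24Rik fell beside Slc13a4, a sulfate transporter gene, which averaged only 0.190 CPM in EOD, 0.592 CPM in IF16 and 1.13 CPM in AL libraries. 1300002E11Rik and RP23-190H11.5 were chosen for this description after their values were seen.

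Among the pairs with opposite directions, Gm10804 rose while Cd82 fell, and D630024D03Rik fell while Cpeb4, an RNA-binding regulator of translation 47686 bases away, rose by a log2 fold change of 0.89 ± 0.15 (edgeR adjusted p = 0.000272). 1810014B01Rik rose by 1.17 and overlaps Hsp90b1, an endoplasmic reticulum chaperone gene with a log2 fold change of -0.45 ± 0.15 (edgeR adjusted p = 0.0309). Fam120aos rose while Fam120a, 269 bases away on the other strand, had a log2 fold change of -0.27 ± 0.09 (edgeR adjusted p = 0.0374). 9030616G12Rik rose while Mettl7b, 10208 bases away, had a log2 fold change of -0.38 ± 0.11 (edgeR adjusted p = 0.0132). Neighbours share chromosomal position with the lincRNA gene and, where they overlap, possibly reads.

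**Figure D4:**
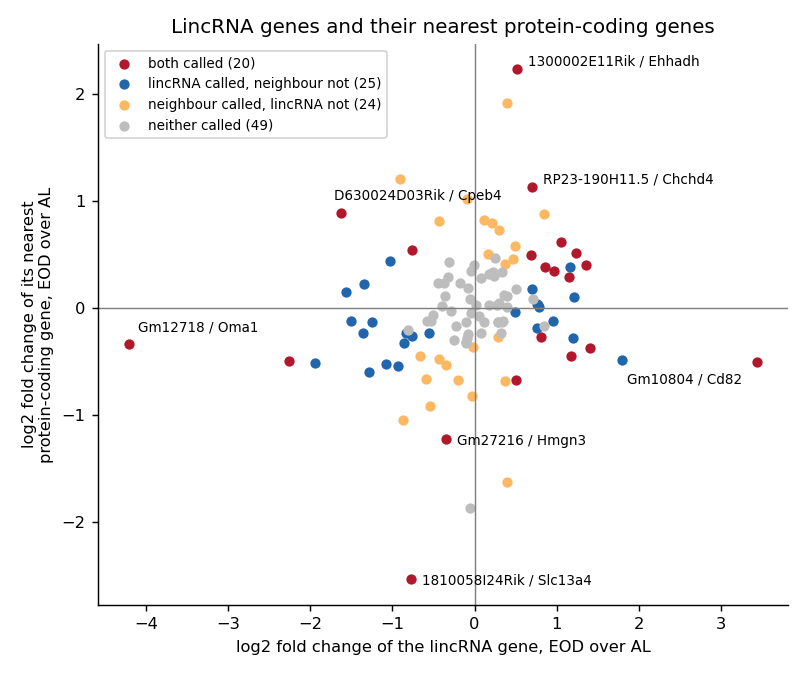
Log2 fold change in EOD over AL of each lincRNA gene (x axis) against that of its nearest protein-coding gene (y axis) for the 118 pairs with a tested neighbour; colours show which of the pair was called (edgeR adjusted p under 0.05). The 20 pairs with both called lie in all 4 quadrants, 13 of them in the quadrants of equal direction, and Ehhadh beside 1300002E11Rik stands at 2.23.

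Promoter windows from RefSeq (GRCm38.p6, 250 bases before to 50 bases after the start) were matched to 90 of the 147 genes, 67 of them with a start within 100 bases of the deposited one. 7 motifs were searched on both strands. CACGTG, the E-box of clock and MYC-family factors, was in 17.8% of the 90 windows, against 7.15% of all 32851 windows. TGACGTCA, the cAMP response element, was in 6.67% against 1.79%, AGGTCA, a nuclear receptor core motif, in 18.9% against 16.3%, and TGTTTAC, a forkhead motif, in 3.33% against 3.65%. CCAAT was in 34.4% against 37.4%, TATAAA in 15.6% against 13.6%, and TTATGTAA, the D-box, in 0 of 90 against 0.938%. No test was made of these shares. The 32851 windows were not limited to genes expressed in these livers, as the 90 were, so the shares have unlike bases. Among the 23 windows of genes that rose in EOD against AL livers CACGTG was in 21.7%, and among the 14 windows of genes that fell it was in 28.6%.

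Windows were read for the genes with the largest changes that had a window at hand. Those of Dio3os and 4732419C18Rik, which hold no match to the 7 motifs, are not shown. The windows of 2 other genes that rose and 2 that fell are shown, and capitals mark any match to the 7 motifs. They are Gm10804 at chr2:93452569-93452868 (plus strand), C330002G04Rik at chr19:23075856-23076155 (minus strand), Meg3 at chr12:109540746-109541045 (plus strand), D630024D03Rik at chr11:31824498-31824797 (minus strand).
Gm10804: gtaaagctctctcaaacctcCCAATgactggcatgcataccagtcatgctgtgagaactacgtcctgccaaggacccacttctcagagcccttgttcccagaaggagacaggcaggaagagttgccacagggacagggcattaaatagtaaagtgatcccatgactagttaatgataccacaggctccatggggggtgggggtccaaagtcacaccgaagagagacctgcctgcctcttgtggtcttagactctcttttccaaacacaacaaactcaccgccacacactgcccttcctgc
C330002G04Rik: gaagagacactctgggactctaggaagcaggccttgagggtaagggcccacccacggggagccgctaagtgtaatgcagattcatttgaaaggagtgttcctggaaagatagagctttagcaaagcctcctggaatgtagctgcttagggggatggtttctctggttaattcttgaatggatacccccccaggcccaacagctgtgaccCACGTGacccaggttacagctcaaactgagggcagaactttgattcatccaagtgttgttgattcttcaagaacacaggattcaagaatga
Meg3: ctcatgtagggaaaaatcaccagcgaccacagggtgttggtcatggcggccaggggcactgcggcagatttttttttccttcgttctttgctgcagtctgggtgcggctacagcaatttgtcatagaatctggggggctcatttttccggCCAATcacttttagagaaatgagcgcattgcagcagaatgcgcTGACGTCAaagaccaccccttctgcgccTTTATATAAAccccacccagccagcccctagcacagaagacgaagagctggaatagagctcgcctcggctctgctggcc
D630024D03Rik: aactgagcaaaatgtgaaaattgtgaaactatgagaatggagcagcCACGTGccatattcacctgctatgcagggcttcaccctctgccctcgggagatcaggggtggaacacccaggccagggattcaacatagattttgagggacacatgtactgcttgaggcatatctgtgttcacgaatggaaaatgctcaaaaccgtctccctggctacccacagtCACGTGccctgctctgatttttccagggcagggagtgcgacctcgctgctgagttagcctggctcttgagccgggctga
C330002G04Rik and D630024D03Rik, which moved in opposite directions, both hold CACGTG, the second in 2 copies, the nearer one starting 29 bases before the annotated start. Meg3 holds CCAAT, TGACGTCA and TATAAA, the last on both strands in overlapping matches, and Gm10804 holds CCAAT alone. The windows of Dio3os and 4732419C18Rik hold none of the 7 motifs. A match is a description of letters and not a site of binding.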

How the data were processed

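RNA-seq counts per gene and FPKM of 15 mouse liver libraries were used as deposited by the authors. The submitters' processing notes list STAR 2.5, HTSeq 0.6.1, DESeq2 (version 2 as listed) and the build mm10, without role or order, and no source used here gives the strand setting. The deposited FPKM equalled the count scaled by gene length and library total in 100% of the values (tolerance 1e-08). Totals ranged from 28129883 to 38147534 counts, and intervals or floors (3 counts) cover counting error only.

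Counts were tested with edgeR 4.0.16 (R 4.3.3): genes were kept by filterByExpr with a minimum count of 10, which left 13837, scaled by TMM, and fitted in 1 quasi-likelihood model with all 15 libraries. Adjusted p-values are Benjamini-Hochberg over those genes, a call is an adjusted p under 0.05, and standard errors (SE) were derived from each gene's log2 fold change and F statistic, as |log2 fold change|/sqrt(F). The steps were tested on simulated data. Alternatives used other scalings, no filter, DESeq2 1.42.0, limma 3.58.1 on log2(FPKM + 1) or log2(FPKM + 0.1), 2 groups alone, a replicate block, and libraries left out. Replicate numbers did not pair libraries and the main model has no block.

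The genes and lists were chosen with earlier results of these data known. The genes named are those called, up to the 12 largest increases and decreases in each comparison, all with a symbol of their own, the 6 of highest FPKM, the 3 on each side of the threshold, and nearest protein-coding genes of called genes. Lists are given as counts with up to 3 examples.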

Additional observations from a re-analysis of the deposited data

Results flagged for a closer look

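Of 168 groups of 5 libraries screened for a single library far from the other 4 (Dixon's criterion, 0.71), 10 were marked, and chance marks about 1 group in 20. EOD replicate 5 was far from its group in 3 genes: Malat1 had 285 CPM there, against 55.8 to 106 CPM in the other EOD libraries, RP24-69I6.1 had 31 CPM against 12.3 to 17.3 CPM, and 1810014B01Rik had only 1.16 CPM, below the other EOD libraries, which reached 2.52 CPM. IF16 replicate 4 was high in Malat1 (169 CPM, the others 124 to 135 CPM) and in RP24-69I6.1 (37.2 CPM, the others 25.9 to 28.7 CPM). IF16 replicate 3 was high in Gm10804 (3.19 CPM, the others 1.68 to 1.98 CPM), and IF16 replicate 1 was low in Snhg18 (0.931 CPM, the others 1.57 to 1.81 CPM). Among AL libraries, replicate 3 was high in Yam1 (2516 CPM, the others 951 to 1152 CPM), replicate 2 in Fendrr (4.73 CPM, the others 1.48 to 2.28 CPM) and replicate 4 in 9430037G07Rik (3.32 CPM, the others 0.944 to 1.59 CPM).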

How the results depend on the processing

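With 1 library left out, the number of lincRNA genes called was 52 to 64 in EOD over AL (56 with all libraries), 27 to 42 in EOD over IF16 (32 with all libraries) and 5 to 13 in IF16 over AL (10 with all libraries, 5 without IF16 replicate 3 and 6 without IF16 replicate 5). DESeq2 called 58, 42 and 18 genes in EOD over AL, EOD over IF16 and IF16 over AL. Without EOD replicate 5, an alternative singled out after seeing the data, the counts were 64, 42 and 13. Over all genes tested, leaving out 1 library gave 3913 to 5673 calls in EOD over AL (4867 with all), 1418 to 3347 in EOD over IF16 (2229 with all) and 241 to 616 in IF16 over AL (484 with all), and IF16 over AL had 939 by DESeq2 and 261 by limma without a filter. The replicate block gave 56, 34 and 10 lincRNA genes in the same order of comparisons. Same-numbered libraries deviated together with r of -0.13 to 0.22 over 15 pairs, and 3 of 15 libraries correlated best with their own number. Calls held in 46 of 56, 22 of 32 and 5 of 10 genes under every one of the 26 alternatives that tested the gene. The limma fits with a filter took only genes of a mean FPKM of at least 0.5, so genes below it, Meg3 among them, had no value there. The sign changed in 0 of 2536 alternative values of called log2 fold changes. It changed in 62 of 2230 alternative values of log2 fold changes not called, which were followed for part of the results only. Meg3 in IF16 over AL was among these 62 (0.49 without AL replicates 4 and 5, -0.77 with all). Genes near 1 CPM rest on few reads, and a missed threshold there does not show equal levels.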
